A study of Mus musculus with 4 samples.

Results

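The regions described here were the intergenic SMAD4-bound regions at intermediate distance from genes: 2691 of the 10964 regions bound in both SMAD4 libraries (24.5%, 95% interval 23.7 to 25.4), and 60.7% of the 4430 bound regions that were intergenic. A bound region was the merged interval of peaks that overlapped by at least 1 bp and held a peak of each library. The 2691 regions were chosen by position alone: their midpoints lay outside curated RefSeq transcripts, outside promoters (from 1 kb before to 100 bp past a transcription start site, TSS) and outside gene ends (from 100 bp before to 1 kb past a transcript end), more than 10 kb and at most 100 kb from the nearest TSS. All coordinates are in the mouse build mm10.

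SMAD4 binding was profiled by HT-ChIPmentation, in which immunoprecipitated chromatin is cut and tagged with sequencing adapters by the transposase Tn5 before it leaves the beads. The cells were alveolar macrophages (AMs), which live in the air spaces of the lung, taken by bronchoalveolar lavage from adult wild-type C57BL/6J mice and sorted by flow cytometry. A combination of SMAD4 antibodies was used. The 4 libraries were 2 SMAD4 immunoprecipitations, named replicate 1 and replicate 2 here, and 2 inputs, which are used here only as the control level that the peak caller set. Nothing in the sources says that the replicates came from separate animals, so that the spread between them may be technical. Peak lists hold no expression values, and the labelled cell type could not be checked against marker genes.

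SMAD4 joins the SMAD proteins that TGFβ and BMP receptors phosphorylate, and the complex enters the nucleus. SMAD proteins bind DNA weakly by themselves and are known to sit at enhancers opened by the lineage factors of a cell, which in macrophages include the ETS factor PU.1 and the C/EBP (CEBP) proteins. Enhancers often lie far from the genes they act on, and the nearest gene named below is a description of position, not a target.

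The sequences under the strongest regions are printed first, because the recurring letters in them are what the counts below describe. Each line gives the gene with the nearest TSS and 201 bp of the mm10 plus strand, read 5′ to 3′ and centred on the mean of both replicates' summits. Capitals mark matches to 17 consensus strings taken from known binding sites, searched on both strands, and to 2 further strings, the CEBP core ATTGC and the CEBP-ATF string TGAYGCAA (Y is C or T), which were chosen after these windows had been seen and were given no test. The 17 strings too were chosen with earlier results of these data known. Overlapping matches run together in 1 block of capitals.
Hcar2, chr5:123832309-123832509: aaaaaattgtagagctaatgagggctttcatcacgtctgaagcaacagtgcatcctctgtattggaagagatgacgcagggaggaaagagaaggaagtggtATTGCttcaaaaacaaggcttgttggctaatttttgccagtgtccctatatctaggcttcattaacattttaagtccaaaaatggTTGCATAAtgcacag
Cd33, chr7:43546080-43546280: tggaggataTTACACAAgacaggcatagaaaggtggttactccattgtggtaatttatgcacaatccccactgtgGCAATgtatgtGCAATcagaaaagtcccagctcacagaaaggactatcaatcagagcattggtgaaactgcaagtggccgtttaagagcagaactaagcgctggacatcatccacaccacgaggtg
2810029C07Rik, chr12:111560909-111561109: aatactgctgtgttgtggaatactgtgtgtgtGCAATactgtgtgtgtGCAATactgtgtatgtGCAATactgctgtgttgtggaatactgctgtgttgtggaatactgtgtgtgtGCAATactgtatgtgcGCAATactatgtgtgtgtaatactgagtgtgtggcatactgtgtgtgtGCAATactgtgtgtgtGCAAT
Rhob, chr12:8432892-8433092: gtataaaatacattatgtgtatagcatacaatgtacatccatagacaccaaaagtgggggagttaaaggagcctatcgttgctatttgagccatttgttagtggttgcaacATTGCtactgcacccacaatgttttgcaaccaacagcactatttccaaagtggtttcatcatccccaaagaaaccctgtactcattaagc
Tlr2, chr3:83859801-83860001: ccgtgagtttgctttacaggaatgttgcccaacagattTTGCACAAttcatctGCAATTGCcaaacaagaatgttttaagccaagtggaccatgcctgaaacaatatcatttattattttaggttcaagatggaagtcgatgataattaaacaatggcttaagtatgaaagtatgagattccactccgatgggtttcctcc
Htr1f, chr16:65197487-65197687: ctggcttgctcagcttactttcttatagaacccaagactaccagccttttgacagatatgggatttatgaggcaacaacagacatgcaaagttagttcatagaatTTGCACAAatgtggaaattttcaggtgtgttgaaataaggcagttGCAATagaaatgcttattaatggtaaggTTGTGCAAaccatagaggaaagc
Ptp4a1, chr1:30930272-30930472: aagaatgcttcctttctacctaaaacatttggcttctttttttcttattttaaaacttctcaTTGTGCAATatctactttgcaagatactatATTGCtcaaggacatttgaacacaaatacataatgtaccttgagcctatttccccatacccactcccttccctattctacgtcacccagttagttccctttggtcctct

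The full CEBP string, TTRYRYAA (R is A or G), stood in 5 of these 7 windows, with 2 copies in that of Htr1f. It stood in none of the other 3 of the 10 strongest regions (near Cers6, Gm13547 and Pag1), so that 5 of the 10 held it. Its share was 24.0% in all 2691 summit windows and 29.5% in those of the 897 strongest regions. A difference from these shares was not tested. In the 201-bp windows the match began at base 187 for Hcar2, base 10 for Cd33 and base 39 for Tlr2, away from the centre. Only Htr1f and Ptp4a1 had a copy within 50 bp of the mean summit. All of the 10 strongest regions held the CEBP core, but it was chosen after these windows had been seen, so that this count supports nothing. The core stood in 51.4% of all 2691 summit windows and in 22.1% of windows 1 kb away. In windows spread over the sequence that the position rule allows, the share was 25.8%. For the core, the share over all bound regions was not computed, so that it was not shown to be particular to these regions. In the window of 2810029C07Rik, a long noncoding RNA gene, 7 copies of the core recurred within a simple repeat, and 51.7% of this window is masked as repeat sequence in the reference. No match to the PU.1, AP-1 or RUNX strings fell in these 7 windows. Among the 10 strongest regions, only the window of Gm13547 held the SMAD box (GTCTGG, here as its reverse complement CCAGAC). That window also held the nuclear receptor core AGGTCA. The search took only the letters of each string, so that related sites which differ by 1 letter were not counted.

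Another set shows the SMAD palindrome GTCTAGAC, in which a pair of SMAD boxes face each other, at the strongest regions that held it.
Vps54, chr11:21223724-21223924: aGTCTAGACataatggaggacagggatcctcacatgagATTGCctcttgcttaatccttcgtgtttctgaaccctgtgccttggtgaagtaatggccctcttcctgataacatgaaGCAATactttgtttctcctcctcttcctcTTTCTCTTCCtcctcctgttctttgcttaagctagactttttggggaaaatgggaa
Gm33370, chr5:96949926-96950126: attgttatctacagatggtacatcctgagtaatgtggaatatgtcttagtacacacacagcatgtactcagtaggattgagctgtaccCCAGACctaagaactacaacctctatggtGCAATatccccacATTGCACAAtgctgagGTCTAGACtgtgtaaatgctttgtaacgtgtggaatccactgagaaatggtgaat

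The last set shows regions next to listed macrophage genes that held the CEBP string: Cd2, an adhesion receptor expressed by AMs, Plin2, the coat protein of lipid droplets, and Egr2, a zinc finger factor of AMs.
Cd2, chr3:101313479-101313679: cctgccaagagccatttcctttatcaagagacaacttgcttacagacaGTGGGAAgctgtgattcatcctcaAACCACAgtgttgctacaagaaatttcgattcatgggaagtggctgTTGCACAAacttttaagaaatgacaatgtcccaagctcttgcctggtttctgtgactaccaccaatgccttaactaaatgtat
Plin2, chr4:86690277-86690477: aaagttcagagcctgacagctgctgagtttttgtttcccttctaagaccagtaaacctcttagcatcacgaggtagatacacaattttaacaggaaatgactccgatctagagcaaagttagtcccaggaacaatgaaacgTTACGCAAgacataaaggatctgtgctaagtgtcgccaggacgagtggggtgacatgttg
Egr2, chr10:67439454-67439654: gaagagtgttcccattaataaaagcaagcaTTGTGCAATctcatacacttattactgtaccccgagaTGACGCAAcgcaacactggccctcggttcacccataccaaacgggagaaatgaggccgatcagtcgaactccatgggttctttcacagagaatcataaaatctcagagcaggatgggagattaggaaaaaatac

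The string was no constant of listed genes: of the strongest regions of the 64 listed genes that had one, 19 held it (29.7%), and those near Klf6, Cd9, Abcg1, Itgb8 and Tgfbr1 did not. Beside this, the CEBP string stood in 24.0% of all 2691 summit windows and in 29.5% of those of the 897 strongest regions. A difference of the listed genes from these shares was not tested. Each of the 3 windows printed held 1 copy. That of Egr2 also held the CEBP-ATF string, as TGACGCAA, that of Plin2 held a CEBP string with a CpG, TTACGCAA, and that of Cd2 also held a RUNX string and an RBPJ string.

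SMAD4 signal at the 2691 regions covered a wide range and ranked alike in both replicates. Fold is the number of fragments stacked at the summit plus 1 over the control level plus 1. In replicate 1 the fold ran from 2.37 to 49.4 with a median of 6.83 (interquartile range 5.20 to 10.4), and in replicate 2 from 3.07 to 77.6 with a median of 9.48 (6.94 to 15.0). The summits held a median of 21 fragments in each replicate, so that a typical fold rested on few fragments. Across regions, Spearman's rho between the replicates' folds was 0.795 and Pearson's r of the log2 folds was 0.854, as descriptions over regions that share the same pair of libraries. The regions were 129 to 2582 bp wide with a median of 444 bp, the summits of both replicates lay a median of 48 bp apart, and 160 regions held more than 1 peak of a replicate. GC content of the 201-bp windows was 43.8% ± 5.95 (SD over 2691 regions).

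**Figure D1:**
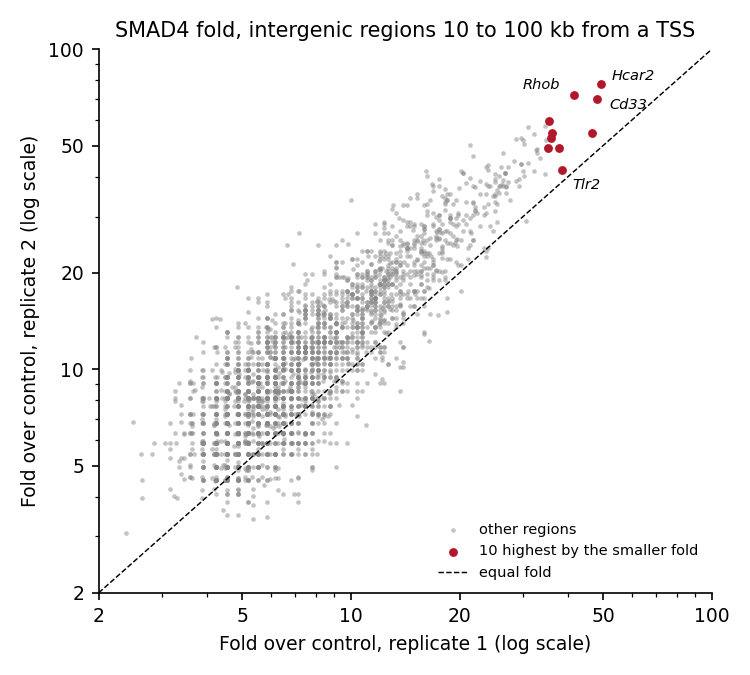
Fold over the control level of each of the 2691 intergenic regions in replicate 1 (x axis) and replicate 2 (y axis), both on log scales. Most points lie above the dashed line of equal fold (medians 6.83 and 9.48), and the 10 strongest regions, in red, reach 49.4 and 77.6 at Hcar2. Median fragments at the summit were 21 in each replicate, while the commonest control levels over all peaks were 2.08 and 1.22.

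The strongest region lay near Hcar2, the receptor for nicotinic acid and the ketone body β-hydroxybutyrate (chr5:123831773-123833143, 33058 bp downstream of its TSS), with folds of 49.4 and 77.6 from 151 and 171 fragments. The next was 12893 bp upstream of Cd33, a sialic acid-binding inhibitory receptor (chr7:43545444-43546683), with folds of 48.1 and 69.9. The region near Rhob, a small GTPase of endosomes (chr12:8432391-8433444, 67091 bp downstream), had folds of 41.6 and 71.7. The regions were picked by the smaller fold of both replicates, so that high folds in each were set by this choice. Summits of these 3 differed between replicates by 2, 10 and 34 bp. Over the 10 strongest regions the differences ran from 2 bp at Hcar2 to 94 bp at Tlr2.

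A region 18056 bp upstream of Tlr2, the receptor for bacterial lipoproteins (chr3:83859056-83860271), had folds of 38.4 and 42.0. Tlr2 had 6 of the regions, and another of them, 43773 bp upstream, was as strong in replicate 2 (folds of 24.1 and 43.3), while the other 4 had folds between 6.83 and 12.6. The rest of the 10 strongest regions lay nearest to 2810029C07Rik, Htr1f (a serotonin receptor), Cers6 (a ceramide synthase), Gm13547, Ptp4a1 (a phosphatase) and Pag1 (a membrane adaptor of lymphoid and myeloid cells), with folds of 35.1 to 46.4 in replicate 1 and 49.0 to 59.6 in replicate 2. The region 53138 bp upstream of Pag1 lay in the gap between Pag1 and Fabp5, a fatty acid-binding protein of AMs.

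The share of strong regions was not shown to differ from that of other distal classes. Among all 10964 bound regions, 1099 (10%) formed the strongest set by the mean rank of the folds, and 299 of the 2691 regions belonged to it (11.1%, 95% interval 9.95 to 12.4). The share was 10.1% in intergenic regions within 10 kb of a TSS (1143 regions), 10.7% in those beyond 100 kb (596 regions) and 10.4% in intronic regions more than 10 kb from a TSS (3577 regions). Against these classes the odds ratios were 1.12, 1.04 and 1.08, with adjusted p of 0.579, 0.829 and 0.579 (two-sided Fisher's exact tests, Benjamini-Hochberg adjusted over 3). Bound regions of 1 genome are not independent replicates, and these tests, those below and all intervals cover counting error only.

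Agreement between the peak lists differed between position classes. Of the 3738 peaks of replicate 1 with a midpoint in this distance range, 2799 (74.9%) overlapped a peak of replicate 2, beside 69.4% of all its peaks. In replicate 2, 2760 of 4358 such peaks (63.3%) had a partner, beside 59.2% of all. Beyond 100 kb the shares were 29.7% and 40.7%, so that peaks between 10 and 100 kb had a partner more often (odds ratios 7.04 and 2.52, adjusted p = 1.75e-248 and 3.50e-52, Fisher's exact tests adjusted over 6). With only peaks of fold 5 or more in each list these odds ratios were 4.04 and 1.45 (adjusted p = 1.58e-41 and 3.13e-06, exact tests). Against intergenic peaks within 10 kb the odds ratio was 0.841 in replicate 1 (adjusted p = 0.0263) and 1.06 in replicate 2 (adjusted p = 0.385), and against distal intronic peaks it was 1.23 (adjusted p = 3.16e-05) and 1.04 (adjusted p = 0.385), all by exact tests. The differences from those 2 classes in replicate 1 depended on the settings. The first ratio was 1.01 with only peaks of fold 5 or more in each list (adjusted p = 0.954) and 0.596 with predicted transcripts added to the gene models (adjusted p = 8.01e-14), both by exact tests. The second was 1.30 (adjusted p = 0.00168) and 0.939 (adjusted p = 0.207) under these settings, again by exact tests.

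Peaks of this range without a partner were small. They were a median of 139 bp wide with 13 fragments at the summit in replicate 1, against 329 bp and 20 fragments for peaks with a partner. In replicate 2 they were 155 bp wide with 11 fragments, against 387 bp and 21. In replicate 1 the unpartnered peaks also had a lower GC content (33.3% against 43.5%), while in replicate 2 the values were 43.1% and 43.9%. Beyond 100 kb the unpartnered peaks were lower in GC in both replicates. Their values were 26.55% in replicate 1 and 33.33% in replicate 2, against 41.2% and 41.45% for peaks with a partner. The part of base composition in the sharing of peaks was not tested.

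The density of the regions fell with distance from the TSS. The sequence that the position rule allows comprised 632.6 Mb, 24.7% of the genome outside assembly gaps, and held 4.25 regions per Mb (95% Poisson interval 4.10 to 4.42), close to the 4.28 of all bound regions over the whole genome. Intergenic sequence within 10 kb of a TSS held 6.99 per Mb, distal intronic sequence 4.76 and intergenic sequence beyond 100 kb 0.870. Within the range, 1092 regions lay 10 to 25 kb from the TSS (5.56 per Mb), 886 lay 25 to 50 kb away (4.35 per Mb) and 713 lay 50 to 100 kb away (3.07 per Mb), and the intervals of these densities did not overlap.

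**Figure D2:**
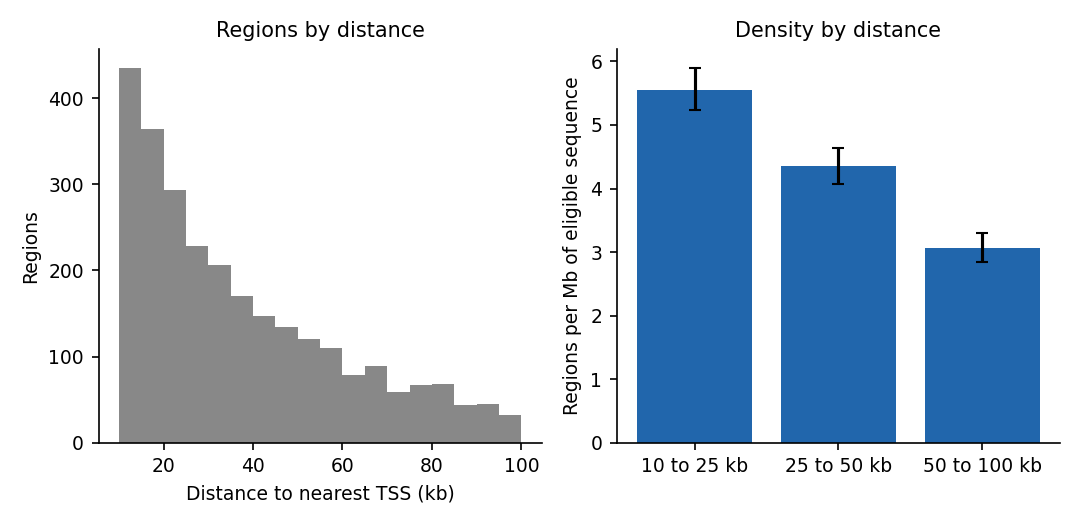
Left, number of the 2691 regions in 5-kb steps of distance to the nearest TSS. Right, regions per Mb of eligible sequence in 3 distance ranges, with 95% Poisson intervals as error bars: 5.56, 4.35 and 3.07 from near to far.

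Median signal did not follow the density. Median folds were 6.56, 6.83 and 6.56 in replicate 1 and 9.48, 9.48 and 9.82 in replicate 2 from the nearest to the farthest range. The CEBP string stood in 23.4% of the summit windows at 10 to 25 kb and in 25.7% at 50 to 100 kb (odds ratio 0.882, p = 0.262, two-sided Fisher's exact test). For PU.1 the shares were 9.16% and 7.71%, with overlapping intervals.

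Just outside the nearer limit lay regions of Ctla4, Peli1 and a pseudogene, Gbp11, at 9982, 9974 and 9971 bp, with folds of 5.20 to 14.6 in replicate 1, and just inside lay regions of AI839979, Gm35742 and Elovl2 at 10010, 10036 and 10036 bp, with folds of 4.23 to 6.18. Just inside the farther limit, regions of Bmp2, 1700121N20Rik and Mir680-3 at 99604, 99827 and 99910 bp had folds of 4.48 to 12.0, and just outside, regions of Gm10556, 4930431F10Rik and Atp6v0c-ps2 at 100007, 100064 and 100161 bp had folds of 4.55 to 6.18. The folds of the regions on either side of a limit overlapped.

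The regions lay on either side of genes much as the eligible sequence did. Upstream of the nearest TSS lay 1716 regions (63.8%, 95% interval 61.9 to 65.6), against 62.1% of eligible positions. The share of regions was 71.3% at 10 to 25 kb and 56.0% at 50 to 100 kb. The eligible share was not computed by distance, so that these values cannot be told apart from those of the eligible sequence. Of the 2686 regions with a gene on both sides, 25.2% lay between divergent genes, 53.9% between genes in the same direction and 20.8% between convergent genes, against 24.8%, 54.3% and 21.0% of eligible positions. The gaps between genes that held them were shorter, with a median of 94448 bp against 143732 bp for eligible positions. The nearest gene was protein-coding for 2078 regions (77.2%), a long noncoding RNA for 524 (19.5%) and a miRNA for 54 (2.01%).

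Close neighbours were about as common here as in distal introns. Another bound region of any kind lay within 10 kb of 1198 of them (44.5%, 95% interval 42.6 to 46.4), beside 48.1% of intergenic regions within 10 kb of a TSS (interval 45.2 to 51.1), 45.7% of distal intronic regions and 39.3% of intergenic regions beyond 100 kb (interval 35.3 to 43.3), untested. The 2691 regions had 1647 nearest genes, of which 1095 had 1 region and 255 had 3 or more. Gaps with 5 or more regions numbered 83 and held 505 regions (18.8%). Neither the share with a neighbour over all bound regions nor an expected number for these counts was computed.

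The 3 genes with the most regions were long noncoding RNA genes in wide gaps. Gm19510 had 17 regions within 139041 bp (chr15:59728083-59867123), on both sides of its TSS, with folds of 4.23 to 23.7 in replicate 1 and 7.67 to 35.2 in replicate 2. Here the nearest protein-coding genes were Trib1, a pseudokinase that lowers C/EBPα protein, at 79717 to 182738 bp, and 4933412E24Rik. Of the 17 regions 5 were among the strongest 10% of all bound regions, and only 1 summit window held the CEBP string.

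Gm47754 had 10 regions (chr13:37525291-37679269), between Ly86, a partner of the TLR-related receptor CD180, and Rreb1, a zinc finger factor that acts with SMADs. Their folds were 3.90 to 15.6 in replicate 1 and 4.96 to 20.8 in replicate 2, none was in the strongest 10%, and 3 windows held the CEBP string. 4930459C07Rik had 9 regions (chr10:96163451-96299199), between Eea1, an endosome tether, and Btg1, an antiproliferative gene. The strongest of these (chr10:96298373-96299199) had folds of 29.6 and 43.8, and 2 of the 9 windows held the CEBP string.

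Most of the searched strings were more frequent at the summits than 1 kb away. Of the 17 strings, 11 were found in more summit windows than flank windows, which were 201 bp long and centred 1 kb to the higher-coordinate side, and 0 in fewer, by two-sided exact McNemar tests over the 2691 regions with Benjamini-Hochberg adjustment over 17 (unadjusted p was under 0.05 for the same 11). Shares in 126610 windows of the same length, placed every 5 kb over the eligible sequence, are given beside them as eligible windows. Since the strings were chosen with earlier results of these data known, their p-values here and below do not come from an independent list. A match to a string is a description of letters, not evidence of a bound factor.

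The CEBP string stood in 645 summit windows (24.0%, 95% interval 22.4 to 25.6), in 123 flank windows (4.57%) and in 5.85% of eligible windows. The ratio of summit to flank share was 5.24 (adjusted p = 2.39e-92, exact McNemar test), and the share over all bound regions was 23.6%. CEBP proteins are basic leucine zipper factors that set up the myeloid lineages.

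Of the 4 strings with an ETS or IRF site, 3 passed. The PU.1 string GAGGAAGT stood in 8.44% of summit windows and 1.41% of flank windows (ratio 5.97, adjusted p = 1.19e-34, exact test, eligible windows 1.27%, all bound regions 8%). The string CAGGAAGT, which differs from it in the first letter and is preferred by ELF5-type ETS factors, stood in 5.98% and 1.56% (ratio 3.83, adjusted p = 1.48e-17, exact test, eligible windows 1.35%, all bound regions 5.62%). The composite of an ETS site and an IRF site (ETS-IRF) stood in 4.35% and 2.04% (ratio 2.13, adjusted p = 5.54e-06, exact test, eligible windows 2.30%, all bound regions 4.14%). The IRF string alone did not pass (3.98% and 3.16%, adjusted p = 0.172, exact test, all bound regions 3.34%).

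Strings of other lineage and signal factors had ratios of up to 2.21. The AP-1 string TGASTCA (S is C or G), bound by FOS and JUN dimers, stood in 9.77% of summit and 4.42% of flank windows (ratio 2.21, adjusted p = 1.46e-13, exact test, eligible windows 3.23%, all bound regions 8.91%). The RUNX string TGTGGTY stood in 18.1% and 9.48% (ratio 1.91, adjusted p = 2.49e-19, exact test, eligible windows 7.46%, all bound regions 16.3%). The STAT5 string TTCYNRGAA, of the factor downstream of GM-CSF, stood in 4.87% and 2.94% (ratio 1.66, adjusted p = 6.29e-04, exact test, eligible windows 3.07%, all bound regions 4.27%). The nuclear receptor core AGGTCA stood in 438 summit and 323 flank windows (16.3% and 12.0%, ratio 1.36, adjusted p = 2.14e-05 in the exact test, eligible windows 11.2%, all bound regions 15.4%). Its direct repeat DR1, the site of PPARγ-RXR pairs, was rare and did not pass (11 and 12 regions, adjusted p = 1 in the exact test, all bound regions 0.292%). The E-box CACGTG, bound by BHLHE40 and BHLHE41, passed narrowly (3.57% and 2.45%, adjusted p = 0.0339 in the exact test, all bound regions 3.65%) and was lost under 7 of 11 other settings.

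**Figure D3:**
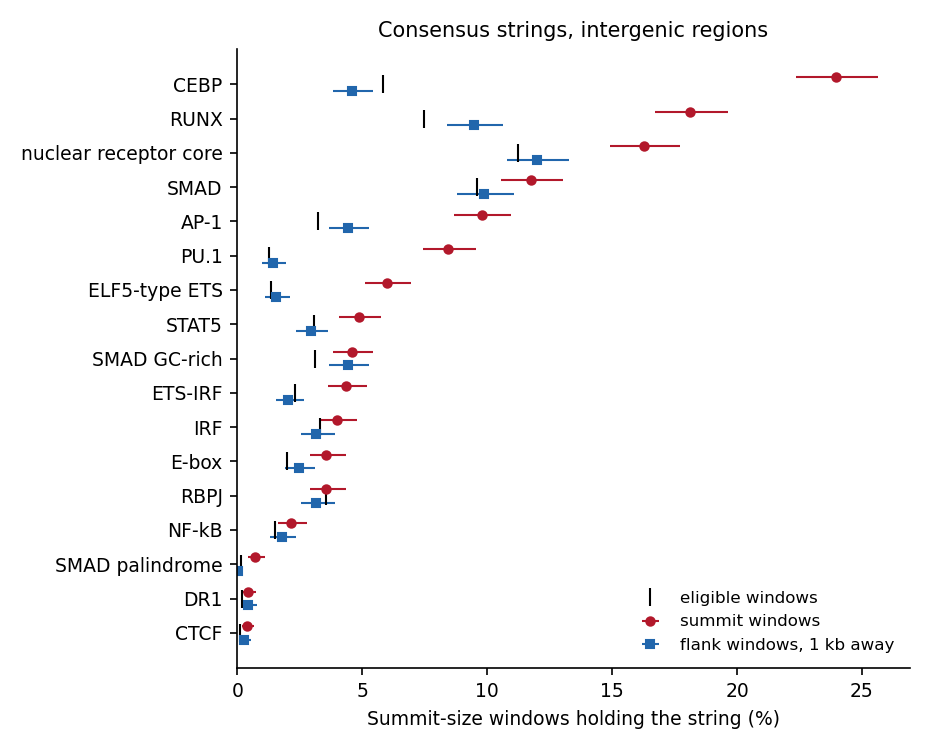
Share of 201-bp windows that held each of the 17 strings: summit windows (red), flank windows 1 kb away (blue), both of the 2691 regions with 95% exact binomial intervals, and eligible windows (black marks). CEBP has the widest gap between summit and flank, at 24.0% against 4.57%.

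Of the SMAD strings, the box was little more frequent at summits. The SMAD box GTCTGG stood in 316 summit windows (11.7%) and 266 flank windows (9.88%), a ratio of 1.19 (adjusted p = 0.0493, exact test, eligible windows 9.59%, all bound regions 11.2%), and this call was lost under 9 of 11 other settings. The GC-rich SMAD string GGCGC stood in 4.57% and 4.42% (adjusted p = 0.894, exact test, all bound regions 5.24%). The palindrome GTCTAGAC was rare but stood in 19 summit windows and 1 flank window (adjusted p = 8.51e-05, exact test, eligible windows 0.150%, all bound regions 0.465%), and it passed under all 11 other settings. The size of this contrast depended on the flank, since the ratio of 19 became 3.80 with the lower-coordinate flank or a flank 5 kb away (flank share 0.186%), 5.33 without replicate 2 and 4.80 without replicate 1. By strength, 13 of the 19 were among the 897 strongest regions, 2 among the next 896 and 4 among the 898 weakest. Between strongest and weakest the odds ratio was 3.29, which did not pass (p = 0.0301, adjusted p = 0.241 over the 17 strings, two-sided Fisher's exact test).

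The strongest region with the palindrome, 15001 bp upstream of Vps54, a subunit of a Golgi tethering complex (chr11:21222740-21225321), was also the widest of the 2691 regions at 2582 bp, with folds of 34.8 and 49.2. It was named after its values were seen. The RBPJ string GTGGGAA, the site of the Notch effector, did not pass (3.57% and 3.16%, adjusted p = 0.543, exact test, all bound regions 4.14%). Nor did those of CTCF (0.372% and 0.260%, adjusted p = 0.713, exact test, all bound regions 0.219%) and NF-kB (2.16% and 1.78%, adjusted p = 0.494, exact test, all bound regions 1.91%).

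Matches of the CEBP and PU.1 strings gathered around the mean summit, without a sharp peak on it. Within 50 bp of the mean summit, CEBP matches were 7.08 times as dense as at 400 to 500 bp, and PU.1 matches 9.38 times. The PU.1 value rested on 136 matches within 50 bp and 29 at 400 to 500 bp. The ratio was 2.71 for AP-1, 2.64 for RUNX, 1.44 for the E-box and 1.19 for the SMAD box.

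**Figure D4:**
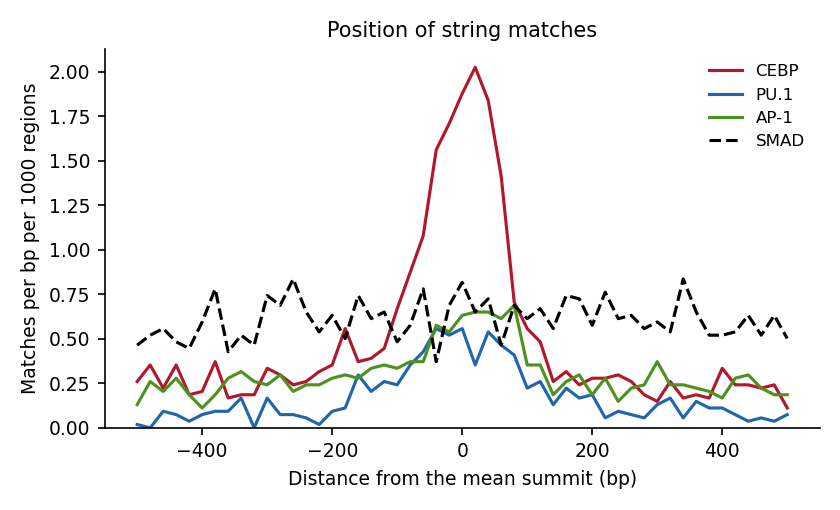
Matches per bp per 1000 regions in 20-bp steps around the mean summit, for the CEBP, PU.1, AP-1 and SMAD box strings. CEBP and PU.1 matches are densest around the mean summit (within 50 bp, 7.08 and 9.38 times the density at 400 to 500 bp), and the dashed SMAD line stays near level (1.19 times).

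The CEBP string covers several octamers, and these differed in their counts. TTGCACAA stood in 239 summit windows and 20 flank windows, TTATGCAA in 145 and 16, TTACACAA in 138 and 19, and TTACATAA in 96 and 16, each counted with its reverse complement. The 3 octamers with a CpG were rarer but also more frequent at summits: TTACGTAA in 18 and 0, TTGCGCAA in 18 and 2, and TTACGCAA in 17 and 1. TTATACAA (17 and 24), TTATATAA (10 and 18) and TTGTACAA (10 and 11), which share the central letters TA, were no more frequent at summits. The CEBP-ATF string TGAYGCAA, chosen after the windows were seen, stood in 166 summit windows (6.17%) and 16 flank windows (0.595%). Shares of the octamers and of this string over all bound regions were not computed.

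The CEBP string was more frequent in stronger regions, which was not shown for the PU.1 string. It stood in 265 of the 897 regions with the highest mean rank of fold (29.5%, 95% interval 26.6 to 32.7), in 22.4% of the next 896 and in 179 of the 898 with the lowest (19.9%, 17.4 to 22.7). The difference between highest and lowest gave an odds ratio of 1.68 (p = 2.46e-06, two-sided Fisher's exact test), the only 1 of 17 strings to pass after adjustment (adjusted p = 4.18e-05, exact test, 3 unadjusted p under 0.05), and was seen with each replicate's peaks alone. For PU.1 the shares were 7.92% and 8.91% (odds ratio 0.879, p = 0.497, exact test), and the direction turned with each replicate's peaks alone (odds ratios 1.14 and 1.31). Mean GC content was 43.5% in the strongest and 43.6% in the weakest regions, and median widths were 686 and 295 bp. The CEBP core ATTGC, chosen after the windows of the strongest regions were seen, showed the same order without a test, at 60.4%, 48.3% and 45.3%.

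**Figure D5:**
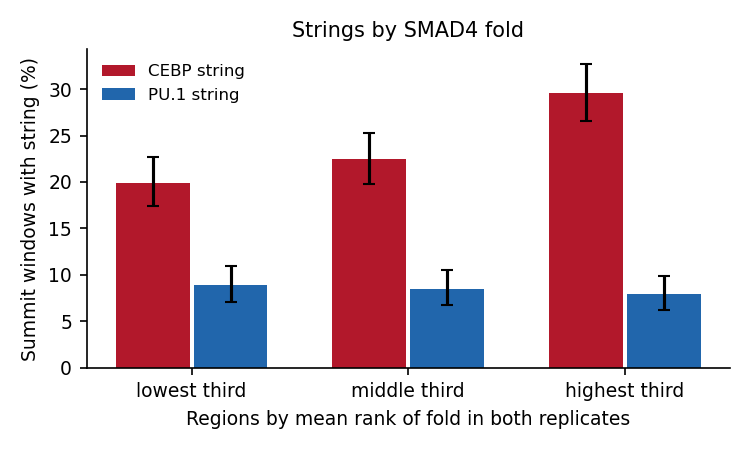
Share of summit windows with the CEBP string (red) and the PU.1 string (blue) in 3 groups of regions from the lowest to the highest mean rank of fold, with 95% exact binomial intervals. CEBP goes from 19.9% to 29.5%, and PU.1 lies between 7.92% and 8.91%.

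Pairs of strings shared few windows, and whether they shared fewer than the single shares would give was not tested. CEBP and PU.1 shared 51 of the 2691 windows (1.90%), and PU.1 stood in 7.91% of windows with the CEBP string and in 8.60% of those without. AP-1 stood in 7.29% of windows with the CEBP string and in 10.6% of those without, and RUNX in 15.5% and 19.0%. Of the 6 strings CEBP, PU.1, ELF5-type, AP-1, RUNX and STAT5, none stood in 1187 windows (44.1%), 1 in 1138, 2 in 324 and 3 or more in 42.

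No string share was shown to differ from the other distal classes. None of the 51 comparisons of string shares (17 strings against 3 classes) passed (two-sided Fisher's exact tests, smallest adjusted p = 0.524), and 3 had an unadjusted p under 0.05. With the peaks of 1 replicate alone, 8 (replicate 2) and 13 (replicate 1) of the comparisons passed. For CEBP the share was 24.0% here, 22.3% in intergenic regions within 10 kb, 27.0% beyond 100 kb and 23.3% in distal introns.

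Of 21000 genes that code for proteins, 1294 (6.16%) had 1 of the 2691 regions nearest to them, and this share is the background for 8 gene lists. The lists were not tested, since they were chosen with earlier results of these data known and genes in long gaps have more room for such regions. The list of other lineages, markers of liver, muscle, lung epithelium, neurons and lymphocytes among others, had 1 of 20 genes, Alb, with folds of 9.43 and 11.3. Bound regions of any position class were counted for 26 of 30 AM genes, 22 of 32 myeloid factors and 18 of 34 TGFβ genes. The counts were 7 of 17 for GM-CSF, 9 of 18 for Notch and 16 of 26 for lipid handling. They were 33 of 38 for innate genes and 2 of 20 for other lineages. The matching share of all protein-coding genes was not computed, and the counts below were not shown to be particular to this distance range.

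Among 30 genes of AMs, 14 (46.7%) were nearest to a region. The strongest of these lay 25649 bp upstream of Cd2 (folds of 26.3 and 47.4), 49155 bp downstream of Cd9, a tetraspanin (25.4 and 32.9), and 15937 bp upstream of Ctsd, a lysosomal protease (18.2 and 33.4). Marco, a scavenger receptor for inhaled particles, followed with 15.9 and 27.5 at 19366 bp upstream. Flt1 had 13.0 and 20.3, and Fabp5 12.4 and 28.9. Car4, Fabp1, Lpl, Ear1, Ear2, Plet1, Krt19 and Atp6v0d2 were also nearest to a region, with folds in replicate 1 from 3.87 at Ear2 to 12.4 at Lpl. With predicted transcripts added to the gene models 9 of the 30 were counted, beside 3.41% of protein-coding genes.

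Of 32 myeloid transcription factors 13 (40.6%) were nearest to a region. Klf6, a zinc finger factor induced in activated macrophages, had 6 regions, of which the strongest lay 14143 bp downstream (chr13:5875182-5876081) with folds of 27.3 and 42.9. Egr2 had 1 region, 95940 bp upstream (chr10:67439159-67439959), with 24.1 and 32.9. Batf, an AP-1 partner, had 20.5 and 41.1, Klf4 14.0 and 24.8, Atf3 12.7 and 19.8, and Myc 11.7 and 16.2.

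Of 34 genes of the TGFβ and SMAD pathway 7 (20.6%) were nearest to a region, among them ligand activation, receptors and effectors. Itgb8, the integrin chain that frees TGFβ from its latent form, had a region 80276 bp downstream with folds of 15.6 and 18.5. Both TGFβ receptor genes were present, Tgfbr1 with 4 regions and folds of 13.3 and 21.7 at the strongest, 37580 bp upstream, and Tgfbr2 with 4.23 and 4.96. The effectors Smad1 (10.7 and 14.9) and Smad3 (6.18 and 8.12), the ubiquitin ligase gene Smurf2 (5.53 and 6.32) and the activin receptor gene Acvr2a (3.58 and 7.22) made up the rest.

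The lists of other AM signal pathways were short. For GM-CSF and STAT5 the genes with a region were 3 of 17 (17.6%): Jak2, the kinase of the GM-CSF receptor (7.80 and 9.02), its subunit Csf2ra (5.20 and 5.87) and the growth factor Csf1 (4.88 and 5.42). For Notch and RBPJ they were 3 of 18 (16.7%): the receptor Notch2 (15.6 and 23.5), the effector Rbpj (6.18 and 7.22) and the ubiquitin ligase gene Dtx4 (5.85 and 12.2).

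In lipid handling 5 of 26 genes (19.2%) had a region. Besides Hcar2 these were Plin2, 20414 bp upstream (chr4:86689973-86690972, folds of 30.2 and 50.5), Abcg1, which exports cholesterol, with 5 regions and up to 15.3 and 20.3, Npc2, a lysosomal cholesterol carrier (7.48 and 11.7), and the receptor gene Lrp1 (6.18 and 9.02). Of 38 innate immune receptor and cytokine genes 18 (47.4%) had one. After Cd33 and Tlr2, the strongest were 64711 bp upstream of Il6 (25.4 and 36.4), 24561 bp downstream of Tlr4, the endotoxin receptor (24.4 and 28.1), 22653 bp downstream of Fcgr2b, an inhibitory Fc receptor (18.9 and 22.1), and 18526 bp downstream of Nfkbia, the inhibitor of NF-kB (16.3 and 19.9).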

How the data were processed

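The labels give 4 libraries of mouse alveolar macrophages, 2 SMAD4 immunoprecipitations and 2 inputs, and replicate numbers follow accession order and pair nothing. Reads were trimmed (Cutadapt), aligned to mm10 (Bowtie2) and freed of duplicates by the authors, who then called peaks per library, not pooled, with MACS3 at a q limit of 0.05 against input. Each peak that the authors deposited has a fold ratio over the control level, a −log10 p-value and −log10 q-value at the summit, a score (made from q, not used) and the summit as an offset. Library totals were not used here, so depth was read from summit pileups solved from fold and p. In replicate 2 these matched the deposited p within 0.01 for 19014 of 19015 peaks (the last is outside the computed range and is no region described here) and in replicate 1 for all 16369. The commonest control level was 2.08 fragments in replicate 1 (79.5% of peaks) and 1.22 in replicate 2 (81.0%).

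Gene models were 45756 curated RefSeq transcripts (GRCm38.p6) of 26180 genes. Where a region held several peaks of a replicate, the one with the highest fold was used. Eligible sequence was sampled every 1 kb, and every 5 kb for strings. The regions named are the 10 with the highest smaller fold of both replicates, those of the 3 genes with most regions, the strongest of up to 6 genes per list (further listed genes were named as well, after their values were seen), and 3 on either side of each distance limit. The regions, gene lists and strings were chosen with earlier results of these data known. Listed genes (215 of 215) were matched by symbol or synonym. Tests were two-sided Fisher's exact and exact McNemar tests with Benjamini-Hochberg adjustment and a threshold of 0.05, and intervals were exact binomial or Poisson at 95%. Scripts were tested on simulated data. Alternatives were the overlap rule, stricter q or fold, other gene models, position by summit, other windows and flanks, another ranking, and each replicate alone. Software was scipy 1.17.1, numpy 2.4.6, pandas 2.3.3 and matplotlib 3.10.9 under Python 3.11.15.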

Additional observations from a re-analysis of the deposited data

How the results depend on the processing

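The number of regions lay between 2042 and 4358 over 8 other settings, with 3738 to 4358 when 1 replicate was left out, and only the peaks of replicate 2 alone moved it by over 1.5 times. With predicted transcripts added to the gene models it was 2042 of the same 10964 bound regions, so that fewer counted as intergenic in this range. It was also 2042, of 8290 bound regions, with fold of at least 5 in each list. No paired analysis was possible because the labels give no replicate numbers. Of the 17 strings, 9 to 11 were more frequent at summits under 11 other settings. The ratio for CEBP stayed between 3.22 and 6.92 and that for PU.1 between 4.29 and 8.47, while that for the SMAD palindrome, 19 as reported, went down to 3.80 with another flank. The number of the 51 class comparisons that passed was 0 under the other 7 settings but ranged from 8 to 13 with 1 replicate left out, where peaks without a partner enter, and the cause was not tested. CEBP by strength passed under all 9 settings (odds ratios 1.54 to 1.98) and CEBP by distance under none (0.879 to 0.926). PU.1 by strength turned to 1.14 to 1.31 with 1 replicate left out. Against regions beyond 100 kb, the odds ratio for the strongest 10% turned to 0.955 when ranked by q and 0.997 with fold of at least 5. The odds ratio for a partner, against peaks beyond 100 kb, fell to 4.04 (replicate 1) and 1.45 (replicate 2) with fold of at least 5, and still passed. That against the other classes turned to 1.01 (replicate 1, within 10 kb) and 0.953 (replicate 2, intronic) with fold of at least 5, and, with predicted transcripts, to 0.939 (replicate 1, intronic), 0.903 and 0.928 (replicate 2, within 10 kb and intronic). None of these reversed values passed the threshold.

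Gene list counts moved too. With predicted transcripts they were 9 for AM genes, 8 for myeloid factors, 3 for TGFβ, 1 for GM-CSF and 0 for other lineages (3.41% of protein-coding genes). For any TSS within 100 kb of a region they were 20 for myeloid factors, 12 for TGFβ, 7 for Notch, 8 for lipid handling, 28 for innate genes and 3 for other lineages (17.0% of protein-coding genes). Summits held a median of 21 fragments, which limits single-region comparisons between replicates.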

Other observations

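Some further coding genes were nearest to many of the regions, and they were picked after their counts were seen. Cd93, a surface receptor of myeloid and endothelial cells, had 8 regions over 108577 bp, with folds of 3.87 to 17.6 in replicate 1 and 5.96 to 26.8 in replicate 2, the strongest 14755 bp downstream of its TSS. Cd44, the hyaluronan receptor, had 7 regions, all upstream between 40551 and 85486 bp, and these were of even strength, with folds of 9.43 to 15.3 and 9.93 to 18.1, and none of their 7 windows held the CEBP string. Fam107b and Glrx, a glutaredoxin, also had 7 upstream regions each, and Pag1 had 7, of which 3 were among the strongest 10% of all bound regions and 0 held the CEBP string. Whether these regions act on the genes named was not measured.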
